A study of Rattus norvegicus with 9 samples.

Results

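The genes described here encode the protein subunits of the mitochondrial ribosome. They were taken from the gene table of rat frontal cortex as every gene typed as mRNA whose symbol starts with Mrpl or Mrps followed by a number and whose counts summed over the 9 rats reached 90. The rule found 69 of the 37209 genes in the table, and no comparison between groups entered it. By their established place in the ribosome, 25 of the 69 belong to the small subunit and 43 to the large one, including Mrps18a and Mrps30, whose proteins sit in the large subunit despite their symbols. Mrps36, whose product is now known as a part of the 2-oxoglutarate dehydrogenase complex, was kept apart.

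RNA sequencing after depletion of ribosomal RNA was carried out on the frontal cortex of male Wistar rats aged 14 weeks, with 3 rats in each of 3 groups. Control rats (A1, A2, A6) stayed with their dams without disturbance until weaning. Rats of the MS group (B3, B4, B6) underwent maternal separation, an early-life stress, for 4 h a day from postnatal day 1 to 21. Rats of the MS+EA group (C3, C10, C16) underwent the same separation and then received electroacupuncture, which passes current through needles at the acupoints GV20 and GV29, every other day from postnatal day 61 to 81. By the methods of the study, Control and MS rats were anaesthetised with isoflurane without needling, so all 9 rats shared the anaesthesia. None of the 3 groups received needles without current, so the needles and the current cannot be told apart. Which rats were littermates is not given in the sources used here.

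Mitochondria carry a small genome of their own, and the few proteins it encodes, all of them parts of the respiratory chain and ATP synthase, are made on a ribosome dedicated to them. The RNA of that ribosome comes from the mitochondrial genome, whereas its proteins are encoded in the nucleus, made in the cytosol and imported, so that both genomes contribute to each particle. The small subunit reads the messenger RNA and the large subunit forms the peptide bonds. Neurons depend heavily on oxidative phosphorylation for firing and synaptic transmission.

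The start regions of these genes are shown first, with the motifs that some of them held. RefSeq windows on the GRCr8 rat assembly, from 250 bases before to 50 bases after the start of transcription, were at hand for 54 of the 69 genes. This assembly differs from the one on which the counts were made and served only to read sequence. The letters AAGATGGCG, the core of the extended binding motif of the transcription factor YY1, were found on either strand in 8 of the 54 genes (14.8%), against 2.83% of the 13432 mRNA-typed genes with a window and 1.73% of all 33469 windows. In all 8 the motif read in the direction of the gene, and its first base lay between positions 1 and 31 counted from the start as position 1. The 8 windows are printed 5′ to 3′ on the strand of the gene, with the motif in capitals.
Mrpl37 (chr5:127074944-127074970, minus strand): gcccgggcaAAGATGGCGgcgtccagg
Mrpl42 (chr7:32028486-32028512, minus strand): gattgaagcAAGATGGCGagcgcgcgg
Mrpl46 (chr1:142116989-142117015, minus strand): gaagacggaAAGATGGCGgcgcccata
Mrpl50 (chr5:68668044-68668070, minus strand): agcttgtcgAAGATGGCGgcgctgtgt
Mrps10 (chr9:21122406-21122432, minus strand): cagggcaccAAGATGGCGgcgcgcgca
Mrps18a (chr9:22367363-22367389, minus strand): tgtgttcccAAGATGGCGgccctcagg
Mrps27 (chr2:32474224-32474250, plus strand): gtacgctccAAGATGGCGgcccccatg
Mrps30 (chr2:52195869-52195895, minus strand): cggaggacaAAGATGGCGgctgccagg

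NRF1, a transcription factor known for driving nuclear genes of the respiratory chain, binds a nearly symmetric site whose core GCGCATGCG was present in 5 of the 54 genes (9.26%), against 2.59% of mRNA-typed genes and 1.52% of all windows. Because of the symmetry a site often matches on both strands, and it is then printed once, as read on the strand of the gene. The sites lay 17 to 132 bases before the start, and Mrpl17 held 2 of them. Mrpl17 and Mrpl22, whose expression values are given further on, are among the 5.
Mrpl17, site 1 (chr1:169575737-169575763, minus strand): ggctctgatGCGCATGCGcaagcaccc
Mrpl17, site 2 (chr1:169575699-169575725, minus strand): cgagctactGCGCATGCGtcctctgga
Mrpl22 (chr10:42845872-42845898, plus strand): cctcggactGCGCATGCGtgcaggcag
Mrpl32 (chr17:55260580-55260606, plus strand): ttgacctgtGCGCATGCGcagggaacc
Mrpl44 (chr9:88554909-88554935, plus strand): gaagcacttGCGCATGCGcactatgct
Mrps18b (chr20:2842977-2843003, plus strand): ccttgtccgGCGCATGCGcagtcgttc

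The core CCGGAAG, bound by ETS factors such as GABP, was present in 16 of the 54 genes (29.6%), against 13.5% of mRNA-typed genes. At least 1 of these YY1, NRF1 or ETS motifs was found in 25 of the 54, so that most held none. For the 4 other motifs searched the ratio to the share of mRNA-typed genes lay closer to 1. CCAAT, the NF-Y box, stood at 46.3% against 38.7% of mRNA-typed genes, and TATAAA, the box of the TATA-binding protein, at 14.8% against 10.7%. The E-box CACGTG stood at 7.41% against 8.63%, and the cyclic AMP element TGACGTCA was found in 1 gene (1.85%) against 2.75%. Median GC content was 55.7% in the windows of these genes and 58.3% in those of mRNA-typed genes. These are matches of letters, not measured binding, and the shares were not tested against each other.

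**Figure D1:**
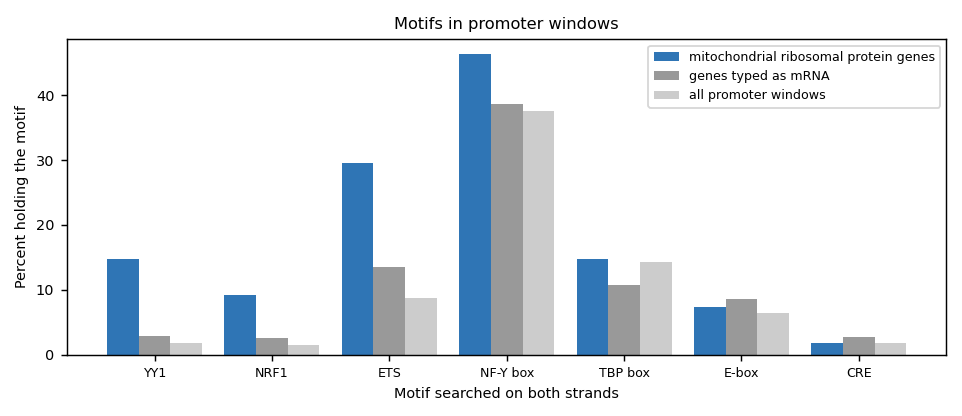
Percentage of genes or windows that hold each motif within 250 bases before to 50 bases after the start (vertical axis), for the 54 mitochondrial ribosomal protein genes with a window (blue), 13432 mRNA-typed genes (dark grey) and all 33469 windows (light grey). The YY1, NRF1 and ETS bars of the ribosomal protein genes stand above the grey ones, at 14.8%, 9.26% and 29.6%.

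The genes were also examined by position. Of the 54 genes, 17 (31.5%) had another gene starting on the opposite strand within 1000 bases upstream, against 13.1% of mRNA-typed genes and 11% of all windows, and for 13 of the 17 the distance was under 300 bases. One such pair joined the 2 subunits of the ribosome. The large-subunit gene Mrpl46 and the small-subunit gene Mrps11 started 234 bases apart in opposite directions, and the sequence between the starts, printed on the strand of Mrpl46, held only the box of the TATA-binding protein on the opposite strand (in capitals) among the motifs searched.
Between Mrps11 and Mrpl46 (chr1:142117031-142117263, minus strand): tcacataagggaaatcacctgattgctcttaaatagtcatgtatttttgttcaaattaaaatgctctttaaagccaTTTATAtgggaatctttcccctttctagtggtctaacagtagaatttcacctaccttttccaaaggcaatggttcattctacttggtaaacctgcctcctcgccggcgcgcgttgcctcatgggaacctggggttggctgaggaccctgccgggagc

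Other neighbours included Ndufb5, a subunit of respiratory complex I, 244 bases from Mrpl47, and the proteasome gene Psma2, 210 bases from Mrpl32. Mrps27 and Ptcd2, a mitochondrial RNA-binding protein, started 91 bases apart, and Mrps18c and the helicase gene Helq 72 bases apart. In the 14 distinct pairs with both genes tested, 0 partners passed the test in any comparison by edgeR's quasi-likelihood test, in which a call needed a fold change over 1.5 and an adjusted p below 0.05. At an unadjusted p under 0.05 there was 1 partner in MS+EA against MS, Hira beside Mrpl40, or 7.14% of the pairs against 12.4% of all genes, and 0 in the other comparisons. The 2 genes of a pair had the same sign in 6 of 14 pairs for MS against Control, 6 of 14 for MS+EA against MS and 5 of 14 for MS+EA against Control. The motif carriers and neighbours were named after the sequences had been read.

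The libraries held between 12479905 and 19007907 counts each, and those of the 3 MS+EA rats (12479905, 14913736 and 13893150) were the smallest. The mean correlation of a rat with the others of its group lay between 0.986 and 0.991. The MS rat B4 held 258 counts of the hypothalamic hormone gene Oxt, against 0 to 25 in the other 8 rats, and results without it are given where they differ. All defining markers of neurons, astrocytes, oligodendrocytes and microglia were detected in every rat. The 2 globin genes Hba1 and Hbb, markers of blood, summed to 65.5 to 136 CPM (counts scaled to a common library size) in Control, 151 to 212 in MS and 144 to 208 in MS+EA rats, with Control rats below all others. The 3 vessel markers Cldn5, Pecam1 and Flt1 summed to 72.1 to 85.6 CPM in Control, 91.4 to 104 in MS and 74.6 to 90.9 in MS+EA rats, so that MS rats lay above the rest and MS+EA overlapped Control. Blood and vessel markers were split after their values were seen. The share of counts from long non-coding RNA was 0.870% ± 0.0627 (SD, n = 3) in Control, 0.903% ± 0.0567 in MS and 1.07% ± 0.0816 in MS+EA rats. The part of these differences in the results below was not tested. In RNA from whole tissue, fewer cells of a type and less RNA per cell cannot be told apart.

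The 69 genes together took up 0.109% to 0.116% of the counts of a rat. Their CPM, scaled by the trimmed mean of M values, summed to 1149 ± 20.8 in Control (SD, n = 3), 1125 ± 23.6 in MS and 1108 ± 32.3 in MS+EA rats. By rat, the sums were 1171, 1145 and 1130 in Control, 1101, 1125 and 1148 in MS and 1085, 1093 and 1145 in MS+EA. The groups overlapped, and the gap between any 2 means was smaller than the range within MS+EA.

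The 2 subunits were examined apart. The large-subunit genes summed to 746 ± 12.7 CPM in Control, 737 ± 14.2 in MS and 715 ± 14.1 in MS+EA rats. The small-subunit genes summed to 396 ± 9.01 CPM in Control, 380 ± 8.43 in MS and 387 ± 17.8 in MS+EA rats. In the large subunit all 3 MS+EA rats (704, 711 and 731 CPM) lay below all Control rats (734 to 760), by a margin smaller than the SD of either group, whereas in the small subunit MS+EA and Control overlapped. The ratio of the small to the large sum was 0.535, 0.528 and 0.530 in Control, 0.515, 0.516 and 0.518 in MS and 0.533, 0.531 and 0.557 in MS+EA. All 3 MS rats lay below the other 6, but the counting error of this ratio in 1 rat was 0.00761 to 0.00971, similar to the gap between the nearest MS and Control rats. The MS mean was 2.81% below the Control mean, and 1.63% below it once Mrps2, the small-subunit gene with the highest CPM, was left out. Without Mrps2 the MS rats (0.4508 to 0.4525) still lay below the Control rats (0.4587 to 0.4593) and the MS+EA rats (0.4609 to 0.4795). The counting error was not computed without Mrps2. With each gene given the same weight, as the mean log2 CPM of small minus large subunit, MS rats (-0.050 to -0.023) overlapped Control rats (-0.025 to 0.023), and MS+EA rats (0.042 to 0.076) lay above both. No test was made on these sums, since the genes in them are not replicates.

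**Figure D2:**
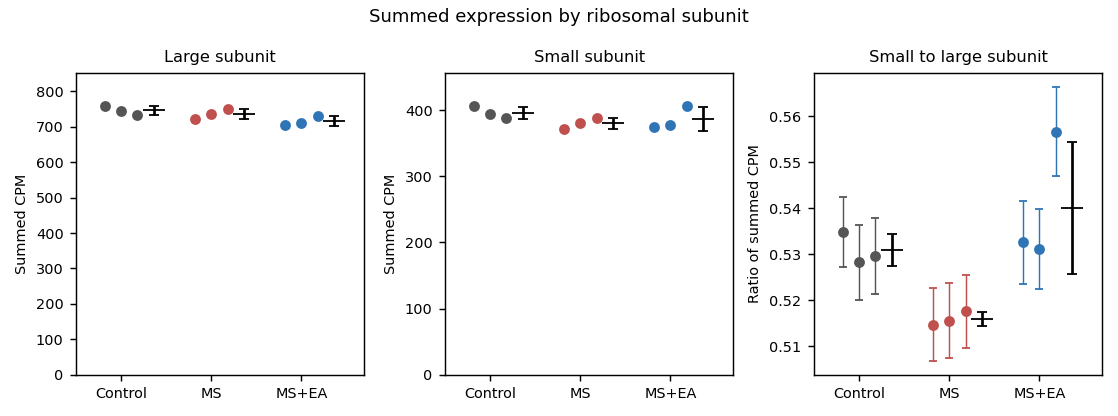
Summed CPM of the 43 large-subunit genes (left) and the 25 small-subunit genes (middle), and the ratio of the small to the large sum (right, axis not starting at 0). Each point is 1 rat, black marks are the group mean ± SD (n = 3), and the coloured bars on the ratio are the counting error of 1 rat; the 3 MS ratios (0.515 to 0.518) lie lowest.

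CPM values are not divided by transcript length, so the levels below rank the genes by their share of reads and not by copies of RNA. Mean CPM over the 9 rats was highest for Mrpl51 (73.9), followed by Mrps2 (51.1), Mrpl17 (32.6) and Mrpl4 (31.9). It was lowest for Mrpl1 (2.45), Mrpl22 (4.26), Mrpl2 (5.63) and Mrps18c (5.78). Mrpl51 ranged from 69.9 to 73.4 CPM in Control, 71.7 to 78.5 in MS and 68.7 to 80.8 in MS+EA rats, and all groups overlapped. The 2 lowest genes lay well inside the limit of 90 counts over the 9 rats, at 353 counts for Mrpl1 and 619 for Mrpl22, with Mrpl2 at 807. Outside the limit stood Mrpl30 at 65 counts, Mrpl53 at 41, Mrpl36 at 3 and Mrps21l at 1, and the pattern also matched Mrps17-ps1, which is typed as non-coding.

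The spread within groups was small for most genes. The coefficient of variation within groups, pooled over the 3 groups, had a median of 10.03% over the 69 genes, against 12.3% over all 16837 genes tested. For 34 genes it was under 10%, and counting error alone would give a median of 6.49%. The smallest spread was that of Mrpl47 (4.496%) and the largest that of Mrpl1 (38.7%), followed by Mrps18c (21.3%), both among the 4 genes with the lowest levels. Mrpl1, a protein of the stalk through which spent tRNA leaves the ribosome, stood at 1.66, 3.60 and 3.54 CPM in Control, 3.85, 3.002 and 1.26 in MS and 1.25, 1.74 and 2.15 in MS+EA rats. Its low values came from rats of every group. RefSeq names pseudogenes of 22 of the 69 genes, 31 in all, among them 2 of Mrpl1, 2 of Mrpl17, 2 of Mrpl47, 1 of Mrps18c and 3 of Mrps36. How reads that match several places were counted is not given in the sources used here, so the values of these 22 genes are less certain.

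**Figure D3:**
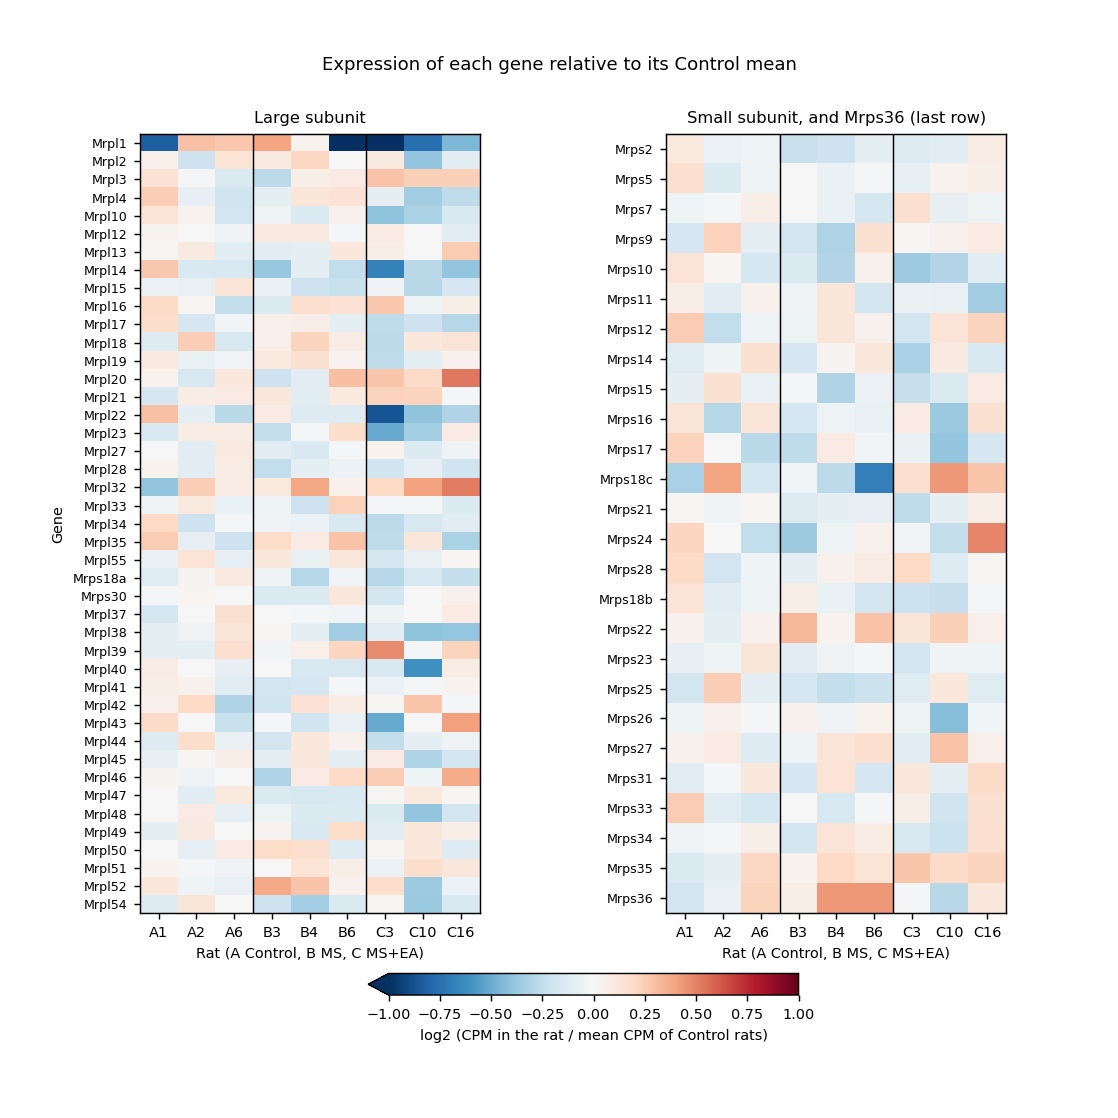
Log2 ratio of each gene's CPM in a rat to its mean in the Control rats, for the 43 large-subunit genes (left) and the 25 small-subunit genes with Mrps36 in the last row (right). Columns are the 9 rats, and the colour scale stops at -1 and 1. Most cells are pale, and the row of Mrpl1, with a pooled coefficient of variation of 38.7%, stands out in every group.

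MS was compared with Control to ask what early separation left behind in the adult cortex. None of the mitochondrial ribosomal protein genes passed the test for a change. By edgeR 0 of 69 were called, against 0.0238% of all genes tested (4 of 16837). Neither DESeq2 nor limma called any. At an unadjusted p under 0.05 there were also 0 of 69 by edgeR, where all genes gave 10.6% (7.06% higher, 3.55% lower), and the lowest adjusted p was 0.479. The median log2 fold change of the 69 was -0.028, against -0.0014 over all genes, with 28 genes higher and 41 lower. The 95% interval of 63 of them (91.3%) lay inside a fold change of 1.5 in either direction, against 60.3% of all genes, and such intervals are narrower for genes with more counts. The 6 exceptions were Mrpl1, Mrpl14, Mrpl32, Mrpl52, Mrps18c and Mrps36, for which a change of that size was not excluded by the interval.

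The gene with the smallest p was Mrps2, a small-subunit protein with a counterpart in bacteria. It stood at 57.4, 51.6 and 52.1 CPM in Control, 46.0, 46.5 and 50.3 in MS and 49.3, 49.9 and 56.4 in MS+EA rats. The MS rats lay below the Control rats without overlap, by 0.18 on the log2 scale (log2 fold change -0.18, SE 0.083, edgeR adjusted p = 0.479). Mrpl47, a protein near the exit of the peptide tunnel, stood at 23.4, 21.8 and 25.1 CPM in Control, 21.2, 21.0 and 21.0 in MS and 23.6, 25.1 and 23.8 in MS+EA rats. The 3 MS rats were the lowest of the 9 (log2 fold change -0.15, SE 0.092, edgeR adjusted p = 0.590). Mrpl54 and Mrps21 were the other genes whose MS rats lay below Control without overlap, making 4 (5.80%) against 7.53% of all genes, and 0 genes lay above without overlap, against 10% of all genes. Mrps36 (0.32), Mrps22 (0.22), Mrps25 (-0.21), Mrpl54 (-0.23), Mrpl14 (-0.24) and Mrpl15 (-0.16) complete the 8 genes with the smallest p by their log2 fold changes, and none passed the test.

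MS+EA was compared with MS to ask what the treatment altered in separated rats. Again 0 of 69 genes passed the edgeR test, against 0.0178% of all genes (3 of 16837), and DESeq2 and limma called 0. At an unadjusted p under 0.05 there were 5 of 69 (7.25%), 2 higher and 3 lower, against 12.4% of all genes (6.01% higher, 6.42% lower). DESeq2 gave 4, against 11.2% of all genes. Without A2, B3, B4 or C10 there were 3, against 11.9%, 11.5%, 8.39% and 11.4% of all genes in those fits. The median log2 fold change was -0.00036, against 0.00059 over all genes, with 34 genes higher and 35 lower. The interval stayed inside a fold change of 1.5 for 56 genes (81.2%), against 59.4% of all genes. Beside these values, 5 of the 6 oligodendrocyte markers were higher in MS+EA than in MS, with a median log2 fold change of 0.40 over the 6. The groups overlapped for all 6. Of the 7 neuron markers 6 were lower (median -0.080), as were 4 of the 5 vascular and blood markers (median -0.15). The astrocyte and the microglia markers each had 2 higher and 3 lower. In MS against Control 5 oligodendrocyte markers were lower and 1 higher (median -0.23), and 5 microglia markers were lower and 0 higher (median -0.10). In MS+EA against Control 6 oligodendrocyte markers were higher and 0 lower (median 0.13), and 4 microglia markers were lower and 1 higher (median -0.19). In these lists 0 markers passed the test, and their part in the result was not tested. MS+EA against MS shares its MS rats with MS against Control, so a gene that happened to be low in those rats would appear in both with opposite signs.

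Mrps18c had the smallest p. It is 1 of 3 paralogs of the bacterial protein S18, and its neighbour Helq starts 72 bases away. It stood at 4.55, 7.50 and 5.04 CPM in Control, 5.60, 4.75 and 3.55 in MS and 6.38, 7.71 and 6.92 in MS+EA rats. The MS+EA rats lay above all MS rats and overlapped with Control (log2 fold change 0.59, SE 0.228, 95% interval 0.10 to 1.09, edgeR adjusted p = 0.324). Its paralog Mrps18b stood at 20.7, 17.4 and 18.2 CPM in Control, 19.5, 17.9 and 16.5 in MS and 16.2, 16.02 and 18.6 in MS+EA rats. Mrps18a stood at 31.4, 34.7 and 36.2 CPM in Control, 33.0, 28.02 and 33.6 in MS and 27.96, 30.6 and 28.9 in MS+EA rats. In MS+EA against MS their log2 fold changes were -0.088 (SE 0.117) and -0.11 (SE 0.0985), and the groups overlapped for both. Whether the paralogs differed from each other was not tested.

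The other genes at an unadjusted p under 0.05 belonged to the large subunit. Mrpl3, a protein close to the catalytic centre of the large subunit, stood at 28.3, 25.4 and 23.1 CPM in Control, 21.3, 26.6 and 27.1 in MS and 31.2, 30.2 and 30.3 in MS+EA rats. All MS+EA rats lay above the other 6 (log2 fold change 0.29 against MS, SE 0.112, edgeR adjusted p = 0.329). Mrpl17, which carries 2 of the NRF1 sites shown above, stood at 38.9, 30.5 and 33.6 CPM in Control, 35.6, 35.96 and 32.2 in MS and 28.7, 29.7 and 28.2 in MS+EA rats. Here the MS+EA rats lay below the other 6 (log2 fold change -0.26 against MS, SE 0.101, edgeR adjusted p = 0.329). Mrpl4, a relative of a protein that lines the bacterial peptide tunnel, stood at 31.0, 35.8 and 36.4 CPM in MS and 30.9, 25.9 and 27.7 in MS+EA rats, with Control rats at 39.1, 31.2 and 28.8. Its MS and MS+EA rats did not overlap, but the nearest pair was almost level (log2 fold change -0.29, SE 0.123, edgeR adjusted p = 0.369). Mrpl10, which anchors the stalk that recruits translation factors, stood at 30.3, 28.4 and 24.2 CPM in Control, 26.9, 25.1 and 28.6 in MS and 20.9, 22.2 and 24.7 in MS+EA rats. The MS+EA rats lay below all MS rats (log2 fold change -0.25, SE 0.111, edgeR adjusted p = 0.381).

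Mrpl47 (0.19), Mrps36 (-0.37) and Mrpl35 (-0.32) complete the 8 smallest p by log2 fold change, and Mrpl47 lay higher in MS+EA without overlap. In all, MS+EA rats lay above MS rats without overlap in 4 genes (Mrpl3, Mrpl47, Mrps18c, Mrps25), or 5.80% against 8.27% of all genes. They lay below without overlap in 5 (Mrpl4, Mrpl10, Mrpl17, Mrpl22, Mrpl48), or 7.25% against 9.6% of all genes. Lowest among the fold changes was that of Mrpl1 at -0.66 (SE 0.424), whose groups overlapped.

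**Figure D4:**
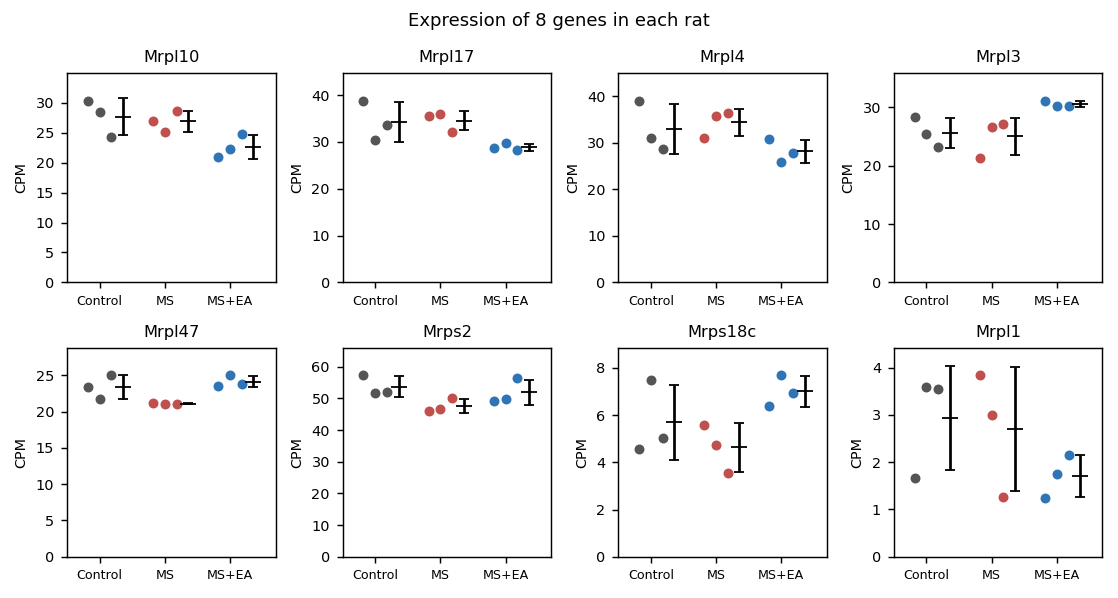
CPM of 8 genes in each rat, with every axis starting at 0. Each point is 1 rat and black marks are the group mean ± SD (n = 3). For Mrpl3 and Mrpl17 the MS+EA rats lie apart from the other 6 rats, for Mrpl47 the MS rats lie lowest, for Mrps2 they lie below the Control rats but overlap the MS+EA rats, and Mrpl1 shows the widest spread within groups.

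MS+EA and Control differ in both separation and treatment, and this comparison shares rats with each of the others. Across all genes it gave the most calls, 1.37% (230 of 16837), and again 0 of the 69 mitochondrial ribosomal protein genes by edgeR, DESeq2 or limma. At an unadjusted p under 0.05 there were 8 of 69 (11.6%), 1 higher and 7 lower, against 22.5% of all genes (11.9% higher, 10.6% lower). DESeq2 gave 4, against 21.2% of all genes. The count was 4 without A1, 5 without A2, 5 without B4, 2 without C3 and 4 without C10. In those 5 fits all genes gave 16.2%, 20.9%, 21.8%, 22.7% and 20.1%. The median log2 fold change was -0.049, against 0.0055 over all genes, with 28 genes higher and 41 lower, and it was -0.087 without C16. The interval stayed inside a fold change of 1.5 for 61 genes (88.4%), against 55.6% of all genes. The lowest adjusted p was 0.137. Of the 7 neuron markers, 4 were higher and 3 lower in MS+EA than in Control, with a median log2 fold change of 0.034. One of the lower ones, Slc17a7, a marker of excitatory neurons, stood at 1532 to 1635 CPM in Control and 1225 to 1337 in MS+EA rats. Its groups did not overlap (log2 fold change -0.30, edgeR adjusted p = 0.0207, under the fold limit). The part of these markers in the result was not tested.

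All 8 genes at an unadjusted p under 0.05 belonged to the large subunit. It gave 8 of 43 (18.6%), against 0 of 25 in the small subunit and 22.5% of all genes tested. The share of the large subunit with both directions pooled was thus below that of all genes. By direction, 7 of the 43 were lower and 1 higher, where all genes gave 10.6% lower and 11.9% higher. The share of lower genes was thus above that of all genes, and the share of higher genes below it. Without overlap, 14% of the large subunit lay lower against 12.9% of all genes, and 4.65% higher against 13%. The difference between the subunits was not tested. Mrpl10 had the smallest p (log2 fold change -0.29, SE 0.111, edgeR adjusted p = 0.137), with C16 (24.7 CPM) just above the lowest Control rat, A6 (24.2 CPM). Mrpl14, with a counterpart in bacteria, stood at 10.3, 7.68 and 7.65 CPM in Control, 6.59, 8.01 and 7.22 in MS and 5.34, 7.10 and 6.52 in MS+EA rats. All MS+EA rats lay below Control (log2 fold change -0.44, SE 0.178, edgeR adjusted p = 0.165). Mrpl22, whose bacterial relative reaches into the peptide tunnel, stood at 5.89, 4.51 and 3.98 CPM in Control, 5.07, 4.38 and 4.39 in MS and 2.64, 3.62 and 3.90 in MS+EA rats. Its MS+EA rats were the lowest 3 of the 9 (log2 fold change -0.51, SE 0.224, edgeR adjusted p = 0.202). Mrpl17 (-0.25), Mrps18a (-0.23), Mrpl48 (-0.24) and Mrpl38 (-0.29) were also lower without overlap and Mrpl3 (0.25) higher, with adjusted p between 0.163 and 0.222. In all, 6 genes (8.70%) lay lower without overlap, against 12.9% of all genes, and 3 (Mrpl3, Mrpl20, Mrps22; 4.35%) lay higher, against 13%.

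**Figure D5:**
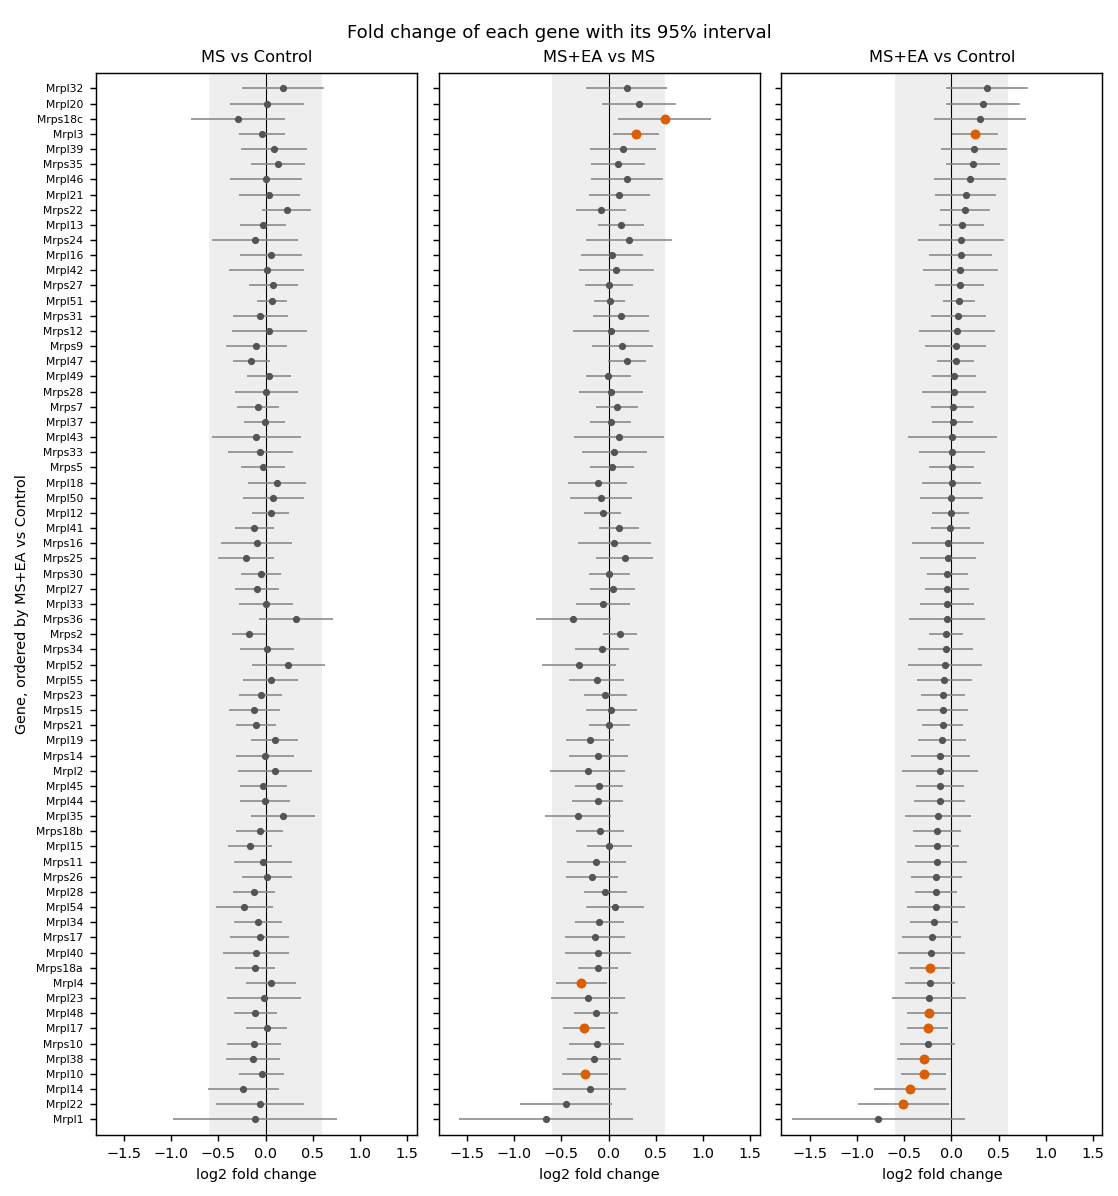
Log2 fold change (points) and 95% interval (lines) of the 69 genes in the 3 comparisons, ordered by MS+EA against Control. The grey band marks fold changes under 1.5 in either direction, and orange points have an unadjusted p under 0.05; 63, 56 and 61 of the 69 intervals lie inside the band, and 0 genes passed the adjusted test.

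The genes were also read by the motifs shown above, with no test. The 8 carriers of the YY1 motif had a median log2 fold change of -0.0025 in MS against Control, 0.0067 in MS+EA against MS and 0.0070 in MS+EA against Control. In MS+EA against Control 1 of the 8, Mrps18a, had an unadjusted p under 0.05, where all genes gave 22.5%. The 5 carriers of the NRF1 core had medians of -0.0098, -0.12 and -0.15, and in MS+EA against Control they ran from Mrpl22 (-0.51) to Mrpl32 (0.38). There 2 of the 5 had an unadjusted p under 0.05, against the same 22.5% of all genes, and 5 genes are too few to compare with that share. The 16 carriers of the ETS core had medians of -0.046, -0.071 and -0.080, with 3 of 16 at an unadjusted p under 0.05 in MS+EA against Control, where all genes gave 22.5%. In MS+EA against MS 3 of the 16 ETS carriers, 1 of the 5 NRF1 carriers and 0 of the 8 YY1 carriers had such a p, where all genes gave 12.4%. In MS against Control 0 carriers of each motif did, where all genes gave 10.6%. Among the factors themselves, Gabpa, the DNA-binding subunit of GABP, stood at 25.7, 28.5 and 28.1 CPM in Control, 30.5, 33.3 and 32.5 in MS and 35.0, 33.8 and 36.2 in MS+EA rats. The MS+EA rats lay above all others, with an adjusted p of 0.0363 by edgeR against Control, but the log2 fold change of 0.35 (SE 0.085) stayed under the fold limit. Yy1 stood at 8.30, 8.23 and 9.58 CPM in Control, 6.30, 8.32 and 7.64 in MS and 7.42, 6.10 and 6.20 in MS+EA rats, and did not pass (log2 fold change -0.40 against Control, edgeR adjusted p = 0.162). Of the 10 regulators listed, which also held Nrf1 and the coactivator gene Ppargc1a, 0 passed in any comparison.

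The mitochondrial ribosome also holds subunits with other names, and 6 were measured. None of the 6 passed in any comparison by edgeR. Dap3, a GTP-binding protein of the small subunit, stood between 17.0 and 25.9 CPM, Aurkaip1 between 12.4 and 17.9, and Chchd1 between 6.97 and 9.51. In the large subunit, Gadd45gip1 stood between 22.1 and 28.2 CPM and Ict1, a peptidyl-tRNA hydrolase built into the ribosome, between 7.64 and 9.08. Groups overlapped for all 5. Ptcd3, an RNA-binding protein of the small subunit, was the exception in overlap, at 40.5, 47.1 and 44.2 CPM in Control, 46.1, 43.3 and 48.3 in MS and 55.4, 51.8 and 52.6 in MS+EA rats. All MS+EA rats lay above the other 6 (log2 fold change 0.28 against Control, SE 0.082, edgeR adjusted p = 0.0664).

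The other genes of mitochondrial protein synthesis likewise gave few calls. Of 16 translation factors 15 were tested and 0 passed in any comparison. Gfm1, the elongation factor that moves the ribosome along, stood at 29.8 to 34.1 CPM in Control, 35.5 to 40.7 in MS and 36.8 to 42.5 in MS+EA rats, with all MS and MS+EA rats above Control (MS against Control, log2 fold change 0.25, edgeR adjusted p = 0.364). The release factor gene Mtrf1l was placed in the same way (log2 fold change 0.42, edgeR adjusted p = 0.273). Of 25 assembly factors 18 were tested and 0 passed, the smallest p being that of Fastkd2, an RNA-binding protein, in MS against Control (log2 fold change 0.30, edgeR adjusted p = 0.389). Of 19 aminoacyl-tRNA synthetases, which load tRNA with amino acids, 18 were tested and 0 passed, and Vars2 was lowest in p (log2 fold change -0.25 in MS against Control, edgeR adjusted p = 0.268). All 11 genes of mitochondrial DNA transcription and maintenance were tested and 0 passed. Ssbp1, which binds single-stranded mitochondrial DNA, came nearest in MS+EA against Control (log2 fold change 0.48, SE 0.14, edgeR adjusted p = 0.0586), and without C3 the list held 1 call.

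This ribosome translates the RNA of the 13 protein-coding genes of the mitochondrial genome, and here some genes did change. In MS against Control all 13 had a positive log2 fold change, with a median of 0.21, and ATP8, a small subunit of ATP synthase, passed the test. It stood at 122, 95.2 and 132 CPM in Control, 316, 289 and 326 in MS and 251, 343 and 291 in MS+EA rats. ATP8 was thus higher in MS than in Control (log2 fold change 1.41, SE 0.13, edgeR adjusted p = 0.000559). In MS+EA against MS 0 of 13 passed, with 4 higher and 9 lower (median log2 fold change -0.099). At an unadjusted p under 0.05 there were 5 of 13 (38.5%), 1 higher and 4 lower, against 12.4% of all genes. MS+EA rats lay below MS rats without overlap for ND1 (-0.50, edgeR adjusted p = 0.184), CYTB (-0.38, adjusted p = 0.184) and COX1 (-0.33, adjusted p = 0.205), and above for 0. In MS+EA against Control 3 passed, all higher, namely ATP8 (log2 fold change 1.34, edgeR adjusted p = 0.000686) and the complex I subunits ND4 (0.92, adjusted p = 0.0161) and ND6 (0.80, adjusted p = 0.00711). The 13 were not of one direction there, since 8 were higher and 5 lower, with ND1 at -0.47 (edgeR adjusted p = 0.0217, under the fold limit). In the same comparison ATP6 (0.36, edgeR adjusted p = 0.0434) and ND4L (0.41, adjusted p = 0.0422) were higher, also under the fold limit. In MS against Control ATP6 had a log2 fold change of 0.57 (edgeR adjusted p = 0.0578), smaller than that of ATP8. ATP8 overlaps ATP6, ND4 overlaps ND4L, and ND6 lies on the strand opposite to the others. Whether the counting used strand is not given in the sources used here, so reads of such genes may not be told apart.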

How the data were processed

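The deposited table holds read counts per gene for 9 rats, which the authors made from ribosomal RNA-depleted libraries. Reads were filtered for quality with FastQC, and the submitters' processing notes name HISAT2 2.0.4 and the Rnor_6.0 build. The counting program, its use of strand and its treatment of reads with several matches are not given in the sources used here. Counts per rat are in the report.

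The counts were fitted for all 9 rats with edgeR 4.0.16 (R 4.3.3), with a mean per group, TMM scaling and filterByExpr (minimum count 10), which kept 16837 genes including all 69. The quasi-likelihood F test was used, with Benjamini-Hochberg adjustment over the 16837 genes. A call needed a fold change over 1.5 and an adjusted p below 0.05, the limits of the study. The SE of a log2 fold change was its size over the root of its F value. The code was tested on simulated data. With 3 rats against 3, an exact permutation test of 1 gene cannot go below p = 0.1 and was not used. P-values measure the spread between these rats only.

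The genes and lists were chosen with earlier results of these data known. Values are given for the 8 genes of smallest p per comparison, the 4 highest and 4 lowest in level, the Mrps18 paralogs, genes near the count limit, subunits with other names, and from each other list the calls and genes among the 2 of smallest p per comparison. Other names were chosen after their values were seen. Mrpl9, Mrpl11, Mrpl24, Mrpl57 and Mrps6 were not analysed here. Promoter sequences came from RefSeq (GRCr8), with 15 genes unmatched, and the YY1 and NRF1 cores of 9 letters were settled on after longer forms had been searched. The alternatives were DESeq2 1.42.0, limma 3.58.1 (log2 CPM with trend), DESeq2 size factors, total counts, other count filters, a fit of the 6 rats compared and leaving out each rat.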

Additional observations from a re-analysis of the deposited data

How the results depend on the processing

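The count of called genes was 0 of 69 in each comparison under all 16 alternatives, and the lowest adjusted p under any of them was 0.400 for MS against Control, 0.271 for MS+EA against MS and 0.107 for MS+EA against Control. The number of genes at an unadjusted p under 0.05 was less stable. In MS against Control it was 0, and 1 with DESeq2 size factors, with total counts and with only the 6 rats compared (all genes 10.6%, 11% and 12.2%). In MS+EA against Control it was 8, and 4 with DESeq2, 5 with total counts and 5 with only the 6 rats compared (all genes 21.2%, 22.2% and 21.5%). Leaving out 1 rat gave 0 to 1 in MS against Control (1 without A6, B3, B4, B6 or C16), 3 to 6 in MS+EA against MS and 2 to 8 in MS+EA against Control. The share of all genes moved too, over 7.18% to 12.1%, 8.39% to 12.4% and 16.2% to 22.7% in the same order. The median log2 fold change in MS+EA against MS was 0.042 with total counts in place of TMM, where the median over all genes shifted alike, to 0.043. With 1 rat left out the median ran from -0.047 to -0.0058 in MS against Control, from -0.036 to 0.0087 in MS+EA against MS and from -0.087 to -0.022 in MS+EA against Control. The ratio of the subunits in MS was 1.63% below Control without Mrps2 (a change of -1.63%, against -2.81%), an alternative chosen after seeing the data, as were those for the gene lists. Among the lists, mitochondrial DNA transcription and maintenance held 0 to 1 calls in MS+EA against Control with 1 rat left out. None of the 24 fold changes of smallest p reversed. They were chosen by that p in these same rats, so a reversal was unlikely from the outset and its absence is no separate support. No paired analysis was possible because the groups are different rats, and any 2 of them share fewer than 2 replicate numbers. Depth limits the genes of fewest counts, such as Mrpl1 with 353 counts over 9 rats. Why the counts moved was not tested.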
